A study of Homo sapiens with 14 samples.

Results

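Transcripts of the nuclear pore and of the receptors that carry proteins and RNA through it were followed in RS4;11 cells, a human line of B-cell precursor acute lymphoblastic leukemia with a rearranged KMT2A gene, before and during dexamethasone treatment. Members were chosen by name alone: every gene of the array whose symbol begins with NUP and a digit, KPNA, KPNB, IPO, XPO or TNPO, and the genes RAN, RANBP1, RANBP2, RANGAP1, RCC1, CSE1L, TPR, NUTF2 and SEH1L. Only probe sets annotated with exactly 1 gene were used. This gave 50 genes with 113 probe sets, out of 11963 genes with 19070 probe sets. NUTF2, the carrier that returns RAN to the nucleus, had no such probe set, because its probe set is annotated with NUTF2P4 as well. NUP62CL entered through its name, and its array values were dim, with group means between 2.8 and 3 on the log2 scale.

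The samples were 14 Affymetrix arrays. Untreated cells gave 4 arrays, cells after 8 h of dexamethasone at 10 nM gave 5, and cells after 24 h at the same dose gave 5. All cells, the untreated ones included, had grown for 48 h in serum stripped of hormone by charcoal and dextran. Dexamethasone is a synthetic glucocorticoid that activates the glucocorticoid receptor (GR), which enters the nucleus on binding it. Cells grown on without hormone for the same times are not among the arrays, so time in culture and dexamethasone cannot be told apart. By the labels there were 5 runs, spread over 4 days, with runs 1 and 2 on day 1. Runs 1 to 4 hold 1 array of each group, and run 5 holds no untreated array. Whether replicates came from separate cultures is not given, and the p-values therefore rest on differences among arrays that may be purely technical. RS4;11 is a single cell line, and the results describe this line only.

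The nuclear pore is a channel through the nuclear envelope, built of nucleoporins. A scaffold of Y-shaped complexes and an inner ring holds a central channel of nucleoporins rich in phenylalanine-glycine repeats, with filaments on the cytoplasmic face and a basket on the nuclear face. Importins and exportins bind their cargo, cross the channel, and release or load cargo according to RAN, a small GTPase that is bound to GTP in the nucleus and to GDP in the cytoplasm. Proteins that enter this way include transcription factors such as GR, histones and ribosomal proteins, and dividing cells must build new pores in every cycle.

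The values are log2 expression values, normalized together by the authors, and the value of a gene is the mean of its probe sets. Levels are compared only within a gene, because probe sets differ in brightness. Array medians ranged from 6.03 to 6.05 without dexamethasone, from 6.03 to 6.09 after 8 h and from 6.07 to 6.11 after 24 h. Probe sets of B-cell precursor genes were bright, with means over all arrays of 12.9 for VPREB1, 9.89 for CD79B, 9.87 for CD79A and 8.75 for PAX5. MME, which encodes CD10, stood at 4.33 and DNTT at 5.17. Probe sets of CD2, CD3D, CD3E and CD3G lay between 3.76 and 4.53, those of 5 monocyte and granulocyte genes between 3.45 and 3.89, and NKG7 at 8.59. The mean of the 7 measured B-cell precursor genes on an array ranged from 8.37 to 8.46 untreated, from 8.05 to 8.21 at 8 h and from 8.25 to 8.53 at 24 h. At 24 h, 3 of these 7 genes were called higher, 2 lower (CD22 and DNTT) and 2 were not called. The mean of the 5 T and NK cell genes ranged from 4.95 to 5.21, 4.91 to 5.11 and 4.94 to 5.15 in the same order, and that of the monocyte and granulocyte genes from 3.64 to 3.77, 3.55 to 3.73 and 3.52 to 3.68. Of 2 measured platelet genes, GP9 was called higher at 24 h with a log2 difference of 1.33, and PPBP stood at a mean of 3.0 and was not called. The part of these shifts in the results below was not tested.

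Most nuclear pore and transport transcripts were lower after 24 h of dexamethasone, and a smaller number were already lower at 8 h. Calls were made with limma, without the run in the model, at 0.05 after Benjamini-Hochberg adjustment over all 11963 genes. At 8 h, 15 of the 50 members were called lower, 1 was called higher and 34 were not called. Of all genes, 11.0% were called lower and 8.69% higher in that comparison. At 24 h, 33 members were called lower, 3 higher and 14 were not called, against 20.9% and 19.5% of all genes. Between 8 h and 24 h, 29 members were lower, 1 was higher and 20 were not called, against 13.7% and 14.6% of all genes. With the run as a block, 19 members were called lower at 8 h, 34 at 24 h and 33 from 8 h to 24 h. Of all genes, 1815, 2871 and 2082 were called lower in that fit. The comparisons with untreated cells share the same 4 untreated arrays.

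The median log2 difference of the members was -0.11 at 8 h, -0.41 at 24 h and -0.25 from 8 h to 24 h. Over all genes these medians were -0.02, -0.02 and 0.00. All 33 members called lower at 24 h were lower in each of the 4 runs with an untreated array. The calls come from these same arrays, which makes such agreement likely, and it was not counted over all genes. All arrays of the groups compared stood apart in 13 members at 8 h, all of them lower, where 18.2% of all genes stood apart in either direction. At 24 h this held for 34 members, 31 lower and 3 higher, against 35.3% of all genes. From 8 h to 24 h it held for 27 members, 26 lower and 1 higher, against 22.4%.

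**Figure D1:**
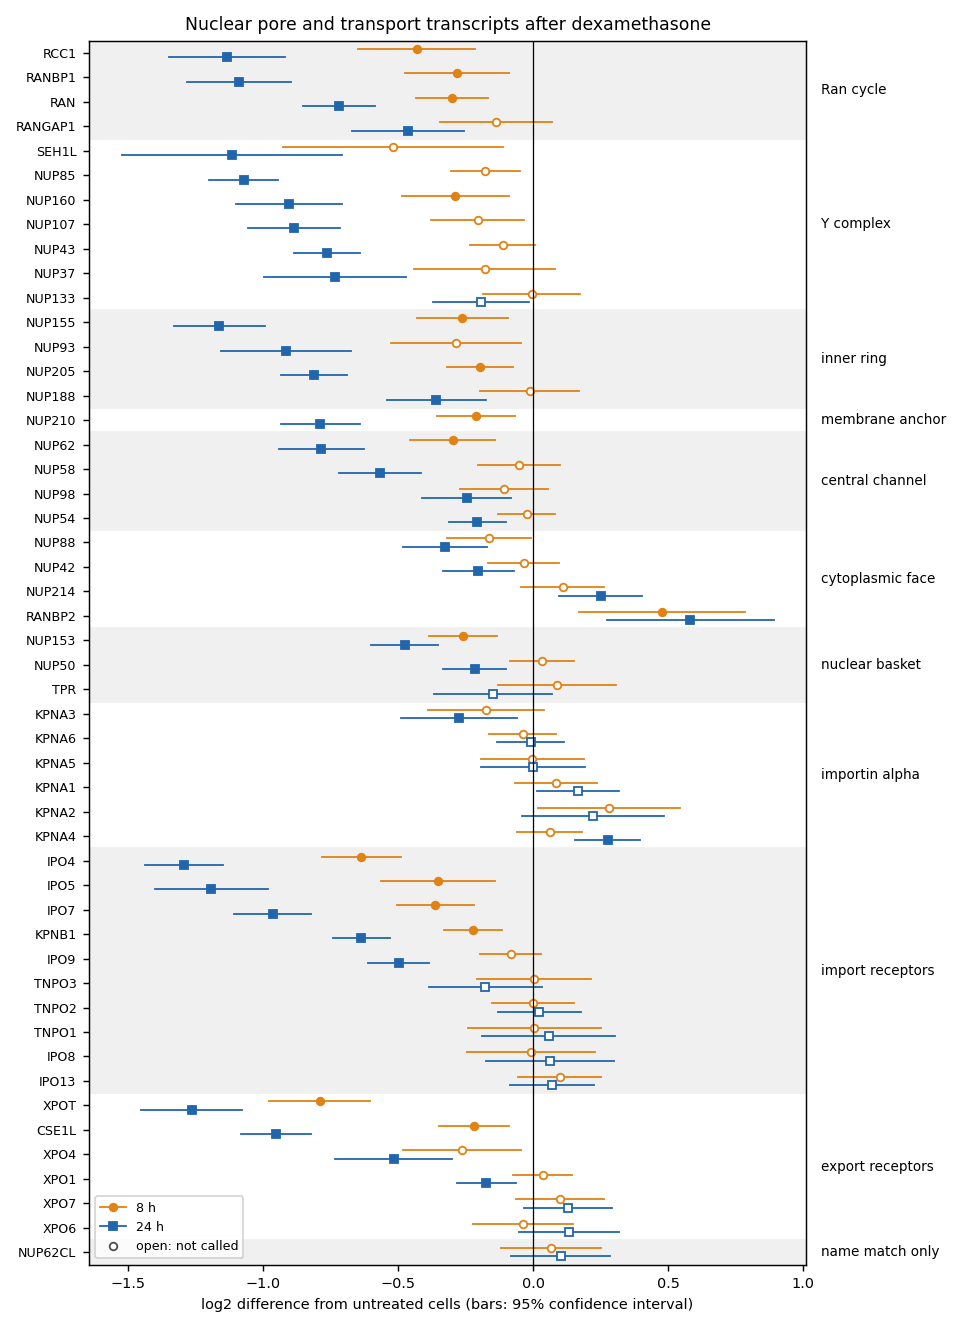
Difference from untreated cells of each member on the log2 scale at 8 h (orange circles) and 24 h (blue squares), grouped by role. Bars are 95% confidence intervals from limma (4 untreated arrays, 5 per time point), and open symbols were not called. At 24 h, 33 of 50 members are called lower, and RANBP2, NUP214 and KPNA4 are called higher.

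The promoters of the members with the largest falls, IPO4 and XPOT, of the member with the largest rise, RANBP2, and of RAN are shown so that their sequence can be set beside the values that follow. Each line gives the 250 bases before the first listed start site of the gene, 5′ to 3′ on the strand of the gene, from RefSeq on GRCh38.p14. The stretches lie at chr14:24188817-24189066 on the minus strand for IPO4, and on the plus strand at chr12:64404142-64404391 for XPOT, chr2:108719232-108719481 for RANBP2 and chr12:130871816-130872065 for RAN. Capitals mark CACGTG, the E-box letters that MYC with MAX and other factors of their class can bind.
IPO4: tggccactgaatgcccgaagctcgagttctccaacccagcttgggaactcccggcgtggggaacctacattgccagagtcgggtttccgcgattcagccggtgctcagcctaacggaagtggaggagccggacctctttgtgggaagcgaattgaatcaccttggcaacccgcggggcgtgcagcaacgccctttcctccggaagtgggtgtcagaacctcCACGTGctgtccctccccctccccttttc
XPOT: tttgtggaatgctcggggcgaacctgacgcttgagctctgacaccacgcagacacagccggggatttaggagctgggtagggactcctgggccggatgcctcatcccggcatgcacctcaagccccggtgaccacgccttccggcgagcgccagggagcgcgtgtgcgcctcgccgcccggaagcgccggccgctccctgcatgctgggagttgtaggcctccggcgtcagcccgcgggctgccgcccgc
RANBP2: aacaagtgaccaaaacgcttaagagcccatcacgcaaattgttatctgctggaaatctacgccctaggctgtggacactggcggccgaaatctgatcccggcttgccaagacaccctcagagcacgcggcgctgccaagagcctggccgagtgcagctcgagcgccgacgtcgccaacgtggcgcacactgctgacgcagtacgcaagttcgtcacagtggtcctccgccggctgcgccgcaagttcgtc
RAN: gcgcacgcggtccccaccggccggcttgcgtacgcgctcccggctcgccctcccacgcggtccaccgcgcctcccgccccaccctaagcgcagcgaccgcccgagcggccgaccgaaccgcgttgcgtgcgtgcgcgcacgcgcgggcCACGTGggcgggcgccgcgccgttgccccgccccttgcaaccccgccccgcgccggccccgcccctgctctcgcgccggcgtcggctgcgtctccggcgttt

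The letters CACGTG read the same on both strands. They begin 29 bases before the start site in IPO4 and 102 bases before it in RAN, and they are not in these windows of XPOT and RANBP2. A promoter was given for 44 of the 50 members, and XPO7, KPNA4, KPNA5, KPNB1, RANBP1 and NUP43 had none. CACGTG was found in 7 of the 44 windows (15.9%), which belong to IPO4, IPO7, KPNA3, NUP188, NUP50, RAN and TNPO2. It was found in 8.34% of 9563 promoters of genes on the array and in 6.49% of all 27305. By call at 24 h, it was in 6 of 30 promoters of members called lower, in 0 of 2 called higher and in 1 of 12 not called. CCAAT on either strand was in 20 of 44 (45.5%), against 35.6% of the promoters of array genes. TTTCCCGC or TTTGGCGC on either strand, the letters of an E2F site, were in 0 of 44, against 2.81%. A match describes the letters and is not a binding site shown by these data.

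At 24 h, 4 genes that set the RAN gradient were lower together. RANBP2, which also binds RAN, was called higher and is given with the cytoplasmic face. RAN, the GTPase itself, RCC1, the chromatin-bound exchange factor that loads RAN with GTP, and RANBP1 and RANGAP1, which drive hydrolysis in the cytoplasm, were all called lower at 24 h. Of these 4 genes, 3 were called lower at 8 h, and RANGAP1 was not. The shares of all genes called lower were 11.0% at 8 h and 20.9% at 24 h.

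RAN stood at 11.98, 11.98, 12.07 and 12.17 on the untreated arrays of runs 1 to 4. It stood at 11.82, 11.84, 11.61, 11.78 and 11.69 on the 8 h arrays of runs 1 to 5, and at 11.32, 11.35, 11.36, 11.38 and 11.25 at 24 h. The 3 groups do not overlap. The log2 difference was -0.30 at 8 h (SE 0.06, adjusted p = 0.00244) and -0.72 at 24 h (SE 0.06, adjusted p = 9.91e-08), so the 24 h level was 0.607 of the untreated one. Within day 1 the 8 h difference was -0.15 and not called, and within days 2 to 4 it was -0.42 and called. The 2 probe sets of RAN fell by 0.68 and 0.76 at 24 h.

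RCC1 stood at 8.55, 8.68, 8.31 and 8.48 untreated, at 8.28, 8.27, 7.91, 7.97 and 7.93 at 8 h, and at 7.38, 7.55, 7.36, 7.41 and 7.15 at 24 h. The groups do not overlap here either. On the log2 scale this was a difference of -0.43 at 8 h (SE 0.10, adjusted p = 0.00586) and -1.13 at 24 h (SE 0.10, adjusted p = 1.31e-07), the latter to 0.456 of the untreated level.

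RANBP1 stood at 7.26, 7.49, 7.59 and 7.72 untreated, at 7.23, 7.27, 7.09, 7.39 and 7.19 at 8 h, and at 6.58, 6.51, 6.38, 6.40 and 6.26 at 24 h. The 8 h arrays overlap the untreated ones through untreated run 1, and the 24 h arrays lie below both. Against untreated cells the log2 difference came to -0.28 at 8 h (adjusted p = 0.0377) and -1.09 at 24 h (adjusted p = 5.44e-08). Its probe sets differ in size: 1 probe set with a mean of 10.9 fell by 2.01 at 24 h, and the other 2, with means of 5.13 and 5.08, fell by 0.49 and 0.78. All 3 were called lower at 24 h. The 8 h call of RANBP1 was lost in 13 alternative settings, among them cyclic loess (-0.27), array weights (-0.25), a fit of the compared groups alone (-0.28) and day 1 (-0.13), and it was kept within days 2 to 4 (-0.43).

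RANGAP1 stood at 6.94, 6.94, 7.18 and 7.42 untreated, at 7.07, 7.10, 6.76, 6.97 and 7.0 at 8 h, and at 6.63, 6.64, 6.79, 6.56 and 6.65 at 24 h. The 8 h arrays lie within the untreated range except for run 3, and its difference of -0.14 was not called (95% confidence interval -0.35 to 0.07). It went both ways by day, 0.15 and not called within day 1, and -0.39 and called lower within days 2 to 4 (adjusted p = 0.0249). At 24 h all arrays lay below the untreated ones, by -0.46 (adjusted p = 9.27e-04).

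**Figure D2:**
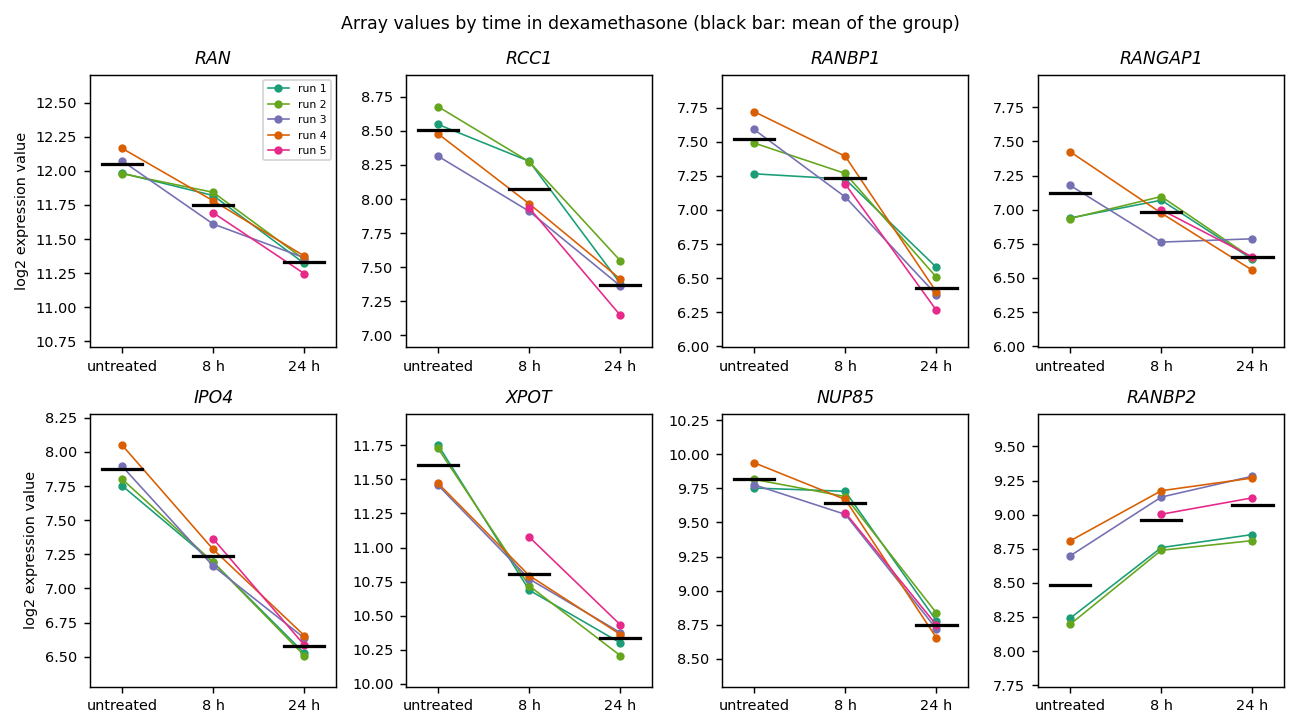
Log2 expression value of 8 members on each of the 14 arrays, by time in dexamethasone. Lines join the arrays of a run, black bars are group means, and every panel spans the same log2 range. RAN, RCC1, IPO4 and XPOT step down at both times, NUP85 mostly after 8 h, and RANBP2 rises in every run from an untreated level that differs between runs.

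Single receptors that carry cargo, XPOT and IPO4, gave the largest falls of the whole group at both times. As classes the receptors did not fall most. The median log2 difference at 24 h was -0.34 for the import receptors and -0.35 for the export receptors. It was -0.91 for the RAN gradient genes above and -0.89 for the Y complex genes below. IPO4, IPO5 and IPO7, importins for histones and ribosomal proteins among other cargo, and KPNB1, the importin beta that pairs with importin alpha, were lower at 8 h and lower again at 24 h. IPO9, an importin of histones and actin, was called lower at 24 h only, by -0.50. Of the 10 import receptors, 4 were called lower at 8 h and 5 at 24 h, against 11.0% and 20.9% of all genes. None was called higher.

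IPO4 stood at 7.75, 7.80, 7.90 and 8.05 untreated, at 7.19, 7.19, 7.16, 7.29 and 7.36 at 8 h, and at 6.53, 6.51, 6.64, 6.65 and 6.58 at 24 h. The groups are separated by more than the range within any of them. Its mean differed by -0.64 at 8 h (SE 0.07, adjusted p = 4.85e-06) and -1.29 at 24 h (SE 0.07, adjusted p = 2.84e-10), to 0.643 and then 0.408 of the untreated level.

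IPO5 stood at 9.92, 9.87, 9.96 and 10.07 untreated, at 9.42, 9.38, 9.63, 9.84 and 9.74 at 8 h, and at 8.62, 8.61, 8.73, 8.94 and 8.90 at 24 h. No 8 h array reached the untreated range, and the 24 h arrays lie below both. The log2 difference was -0.35 at 8 h (adjusted p = 0.0177) and -1.19 at 24 h (adjusted p = 5.26e-08), and all 4 probe sets of IPO5 were called lower at 24 h, by -0.70 to -1.49. IPO7, an importin that can carry GR, stood at 10.27, 10.22, 10.36 and 10.44 untreated, at 9.86, 9.85, 10.00, 10.01 and 10.08 at 8 h, and at 9.33, 9.26, 9.34, 9.40 and 9.46 at 24 h. Its groups do not overlap at any time. IPO7 fell by 0.36 at 8 h (adjusted p = 9.26e-04) and by 0.97 at 24 h (adjusted p = 6.49e-09). KPNB1 stood at 11.05, 11.04, 10.95 and 11.09 untreated, at 10.82, 10.84, 10.79, 10.80 and 10.79 at 8 h, and at 10.42, 10.45, 10.39, 10.40 and 10.32 at 24 h. The spread within each of its groups is small beside both steps. KPNB1 fell by 0.22 at 8 h (adjusted p = 0.00441) and by 0.64 at 24 h (adjusted p = 2.97e-08), and its 6 probe sets fell by 0.57 to 0.76 at 24 h.

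The other import receptors did not pass the test at any time. TNPO1, TNPO2, IPO8 and IPO13 had log2 differences between 0.02 and 0.07 at 24 h. Their 95% confidence intervals reached from -0.19 to 0.30 for TNPO1, -0.13 to 0.17 for TNPO2, -0.18 to 0.30 for IPO8 and -0.09 to 0.22 for IPO13. IPO13 is an importin for which GR has been described as cargo. TNPO3, the importer of splicing factors, stood at -0.18 (interval -0.39 to 0.03) and was called lower once the run was a block in the model (adjusted p = 0.0306).

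XPOT, the export receptor for transfer RNA, had the largest difference at 8 h. It stood at 11.75, 11.73, 11.46 and 11.47 untreated, at 10.69, 10.72, 10.77, 10.79 and 11.08 at 8 h, and at 10.30, 10.21, 10.38, 10.36 and 10.43 at 24 h. Every 8 h array lay below every untreated one, with run 5 the highest of the 8 h arrays. On the log2 scale this was a difference of -0.79 at 8 h (SE 0.09, adjusted p = 7e-06) and -1.27 at 24 h (SE 0.09, adjusted p = 6.45e-09), to 0.578 and 0.416 of the untreated level.

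CSE1L, which returns importin alpha to the cytoplasm, stood at 9.51, 9.50, 9.53 and 9.72 untreated, at 9.41, 9.35, 9.28, 9.41 and 9.30 at 8 h, and at 8.62, 8.55, 8.62, 8.71 and 8.58 at 24 h. The step at 8 h is small beside the one that follows. It was -0.22 (adjusted p = 0.0167) and the whole difference at 24 h was -0.95 (adjusted p = 2.31e-09). Without untreated run 4, the highest array, the 8 h difference was -0.17 and no longer called, and the call was also lost without run 5 (-0.21).

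XPO1, the main exporter of proteins and the target of selinexor, stood at 12.38, 12.38, 12.45 and 12.47 untreated, at 12.44, 12.40, 12.50, 12.46 and 12.48 at 8 h, and at 12.29, 12.14, 12.26, 12.28 and 12.26 at 24 h. The 24 h arrays lie below all the others, and the difference of -0.17 from untreated cells (adjusted p = 0.012) was the smallest among the 33 falls called. At 8 h XPO1 differed by 0.03 and was not called. XPO4 was lower by -0.52 at 24 h (adjusted p = 5.95e-04), while XPO6, the exporter of actin, and XPO7 were not called at either time, with differences of 0.13 each at 24 h.

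The 6 importin alpha genes, the adaptors that read the classical import signal and bind KPNB1, gave 1 call in each direction. None was called at 8 h. At 24 h, KPNA4 was called higher, KPNA3 was called lower, and KPNA1, KPNA2, KPNA5 and KPNA6 were not called. Among all genes 20.9% were called lower and 19.5% higher at 24 h, so 1 of 6 in each direction is near the background.

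KPNA4 stood at 6.99, 7.02, 7.13 and 7.13 untreated, at 7.04, 7.16, 7.11, 7.18 and 7.14 at 8 h, and at 7.33, 7.44, 7.31, 7.36 and 7.27 at 24 h. The 24 h arrays lie above all the others. The log2 difference came to 0.27 against untreated cells (SE 0.06, adjusted p = 8.33e-04) and 0.21 against 8 h (adjusted p = 0.00605). Of its 2 probe sets, 1 differed by 0.53 at 24 h and was called, and the other by 0.02 and was not. KPNA3 differed by -0.27 at 24 h (adjusted p = 0.0405), a call that was lost once the run was a block (adjusted p = 0.067).

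KPNA2 stood at 11.61, 11.59, 12.11 and 12.34 untreated, at 12.12, 12.20, 12.13, 12.18 and 12.31 at 8 h, and at 12.14, 12.02, 12.25, 12.15 and 12.10 at 24 h. The untreated arrays of day 1 lie below all the others, and those of runs 3 and 4 lie within the range of the treated arrays. Over all arrays the difference was 0.28 at 8 h and 0.22 at 24 h, and neither was called (adjusted p = 0.142 and 0.186). Within day 1 it was 0.56 at 8 h and 0.48 at 24 h, both called higher. Within days 2 to 4 it was -0.01 and -0.05, neither called. Without untreated run 4 KPNA2 was called higher at both times.

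**Figure D3:**
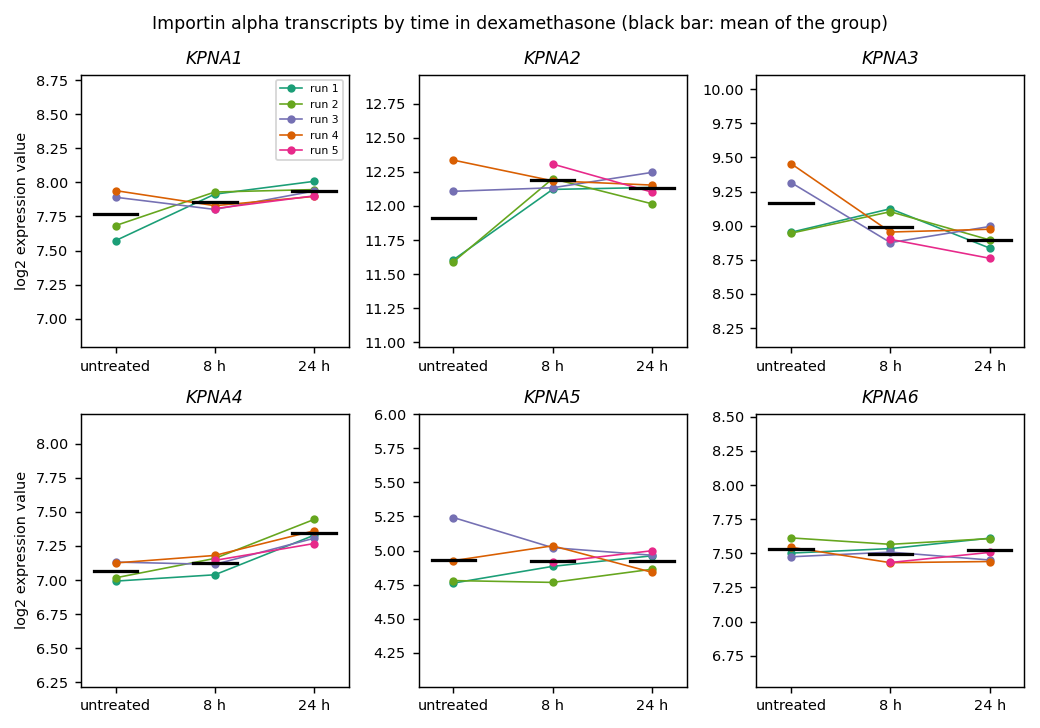
Log2 expression value of the 6 importin alpha genes on each of the 14 arrays, by time in dexamethasone. Lines join the arrays of a run, black bars are group means, and every panel spans the same log2 range. KPNA4 is higher at 24 h in every run, while the untreated values of KPNA2 split by day, near 11.6 in runs 1 and 2 and above 12.1 in runs 3 and 4.

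Most transcripts of the Y-shaped complex, the inner ring and the channel of the pore were called lower at 24 h. Pore proteins and pores were not measured. Of 23 pore members, 6 were called lower and 1 higher at 8 h, against 11.0% and 8.69% of all genes. At 24 h, 19 were called lower and 2 higher, against 20.9% and 19.5%. The median log2 difference of the 7 Y complex genes among the members was -0.18 at 8 h and -0.89 at 24 h. That of the 4 inner ring genes was -0.23 and -0.86, and that of the 4 channel genes -0.08 and -0.41.

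The Y complex forms the outer rings of the scaffold and also acts at kinetochores in mitosis. Its subunits SEC13 and AHCTF1 are left out by the choice by name and are given with the further pore components. Of the 7 members in it, 1 was called lower at 8 h, near the share of all genes (11.0%). At 24 h, 6 of the 7 were called lower, against 20.9% of all genes. In the fit that blocks on run these counts were 3 and 7, and NUP107 (-0.22, adjusted p = 0.0256) and SEH1L were the genes gained at 8 h. The call of NUP160 at 8 h (-0.29), the single one without the block, was lost in 11 alternative settings. SEH1L, which is also a subunit of the GATOR2 complex upstream of mTORC1, differed by -1.12 at 24 h, NUP85 by -1.07, NUP160 by -0.91, NUP107 by -0.89, NUP43 by -0.76 and NUP37 by -0.73. NUP133 differed by -0.19 and was not called (adjusted p = 0.0829), and it was called lower in the fit that blocks on run (-0.21, adjusted p = 0.00393).

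NUP85 stood at 9.75, 9.82, 9.78 and 9.94 untreated, at 9.73, 9.69, 9.56, 9.67 and 9.57 at 8 h, and at 8.78, 8.84, 8.72, 8.65 and 8.75 at 24 h. The 8 h arrays lie just below the untreated ones, and the 24 h arrays lie far below both. Its mean differed by -0.18 at 8 h (adjusted p = 0.0510, not called) and -1.07 at 24 h (SE 0.06, adjusted p = 5.77e-10). SEH1L stood at 10.97, 10.92, 11.63 and 11.65 untreated, at 10.51, 10.45, 11.03, 10.89 and 10.99 at 8 h, and at 9.90, 9.74, 10.36, 10.40 and 10.47 at 24 h. Its untreated arrays split by day, and it was lower in each of the 4 runs at 8 h, by -0.46 to -0.76. The 8 h difference of -0.52 was not called without the run in the model (adjusted p = 0.0729) and was called with it (-0.58, adjusted p = 1.42e-05).

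In the inner ring all 4 genes were called lower at 24 h, against 20.9% of all genes. NUP155 stood at 8.87, 8.94, 8.92 and 9.16 untreated, at 8.66, 8.71, 8.74, 8.77 and 8.69 at 8 h, and at 7.65, 7.66, 7.96, 7.96 and 7.84 at 24 h. The groups do not overlap. The log2 difference was -0.26 at 8 h (adjusted p = 0.0281) and -1.16 at 24 h (adjusted p = 5.52e-09). NUP93 fell by 0.92 (adjusted p = 5.21e-06) and NUP205 by 0.81 (adjusted p = 8.31e-09) at 24 h. NUP188 fell by 0.36, as the mean of 3 probe sets of which 1 fell by 0.89 and was called, while the others differed by -0.01 and -0.18 and were not. NUP210, a membrane protein of the pore, fell by 0.21 at 8 h and by 0.79 at 24 h.

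In the central channel, NUP62 stood at 9.10, 9.19, 9.24 and 9.22 untreated, at 9.0, 9.07, 8.66, 8.85 and 8.84 at 8 h, and at 8.48, 8.41, 8.39, 8.32 and 8.41 at 24 h. The groups do not overlap. NUP62 was the channel member called at 8 h, with a fall of 0.30 (adjusted p = 0.00883) that reached 0.78 at 24 h (adjusted p = 2.70e-07). Within day 1 the 8 h difference was -0.10 and not called, and within days 2 to 4 it was -0.44 and called. Its partners in the channel fell less at 24 h, NUP58 by 0.57 and NUP54 by 0.21. The brighter probe set of NUP54, with a mean of 10.5, fell by 0.26 at 24 h and was called. Its dim probe set, with a mean of 2.92, differed by -0.16 and was not. NUP98, a repeat protein known as a fusion partner in leukemia, fell by 0.25 (adjusted p = 0.0164). In the nuclear basket, NUP153 fell by 0.26 at 8 h and 0.48 at 24 h, and NUP50 fell by 0.22 at 24 h. TPR, the main filament of the basket, was not called at either time (0.09 at 8 h and -0.15 at 24 h).

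The cytoplasmic face went both ways. NUP88 fell by 0.33 and NUP42 by 0.20 at 24 h, while RANBP2 and NUP214 were called higher. The brighter probe set of NUP88, with a mean of 10.3, was called lower at 8 h by 0.33 (adjusted p = 0.0029) and at 24 h by 0.58. Its dimmer probe set, with a mean of 5.36, differed by -0.07 at 24 h and was not called. NUP214, which is a fusion partner in leukemia and binds NUP88, differed by 0.25 at 24 h (adjusted p = 0.0101). Of its 2 probe sets, 1 was called higher at 24 h by 0.53 and the other differed by -0.03. At 8 h the mean of its probe sets differed by 0.11 and was not called, while the brighter probe set alone differed by 0.24 (adjusted p = 0.0107) and was called higher.

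RANBP2, the filament protein that binds RAN and acts as a SUMO ligase, was the single member called higher at 8 h on the mean of its probe sets. It stood at 8.24, 8.20, 8.70 and 8.81 untreated, at 8.76, 8.74, 9.13, 9.18 and 9.0 at 8 h, and at 8.85, 8.81, 9.28, 9.27 and 9.12 at 24 h. The 8 h arrays overlap the untreated ones between runs, but in each run the treated array is higher, by 0.37 to 0.54 at 8 h and 0.46 to 0.61 at 24 h. On the log2 scale this was a difference of 0.48 at 8 h (SE 0.14, adjusted p = 0.0288) and 0.58 at 24 h (SE 0.14, adjusted p = 0.00374). With the run as a block the adjusted p at 8 h was 1.72e-05. In the model without the block, the 8 h call was lost when any of 5 single arrays was left out, those of untreated runs 1 and 2 and of 8 h runs 3, 4 and 5, with differences of 0.38 to 0.46.

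The timing of the falls differed between members. All 15 members called lower at 8 h were also called lower at 24 h and again between 8 h and 24 h. A further 14 were called lower at 24 h and between 8 h and 24 h but not at 8 h, and 4 were called lower at 24 h alone. The shares of all genes with these patterns were not counted, and the comparisons share arrays. No member called in one direction was called in the other at another time. KPNA4 was called higher at 24 h against both other groups, and RANBP2 was called higher at 8 h and 24 h against untreated cells, with no call between them.

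Whether the step from 8 h to 24 h differed from the step to 8 h was tested as a difference of the steps. It was called in 9 members, all with the larger fall in the late step, against 5.13% of all genes in that direction and 5.07% in the other. These were NUP85 (late minus early step -0.72, adjusted p = 1.95e-04), NUP155 (-0.64), NUP43 (-0.54), RANBP1 (-0.53), CSE1L (-0.51), NUP107 (-0.47), NUP58 (-0.46), NUP205 (-0.42) and IPO9 (-0.33). With the run as a block 16 members were called, and of all genes 1011 against 614. XPOT had the opposite order of steps, with -0.79 in the first and -0.47 in the second, but their difference was not called (0.32, 95% confidence interval 0.01 to 0.63, adjusted p = 0.226). IPO4 took steps of -0.64 and -0.66, and their difference of -0.02 was not called (interval -0.26 to 0.22).

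Set against the whole 24 h log2 difference, 62.6% was present at 8 h for XPOT, 54.6% for NUP153, 49.2% for IPO4 and 41.9% for RAN. For NUP85 the share was 16.5%, for NUP43 14.8% and for NUP58 9.20%. These shares are descriptions without a test, and the steps span unequal times.

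**Figure D4:**
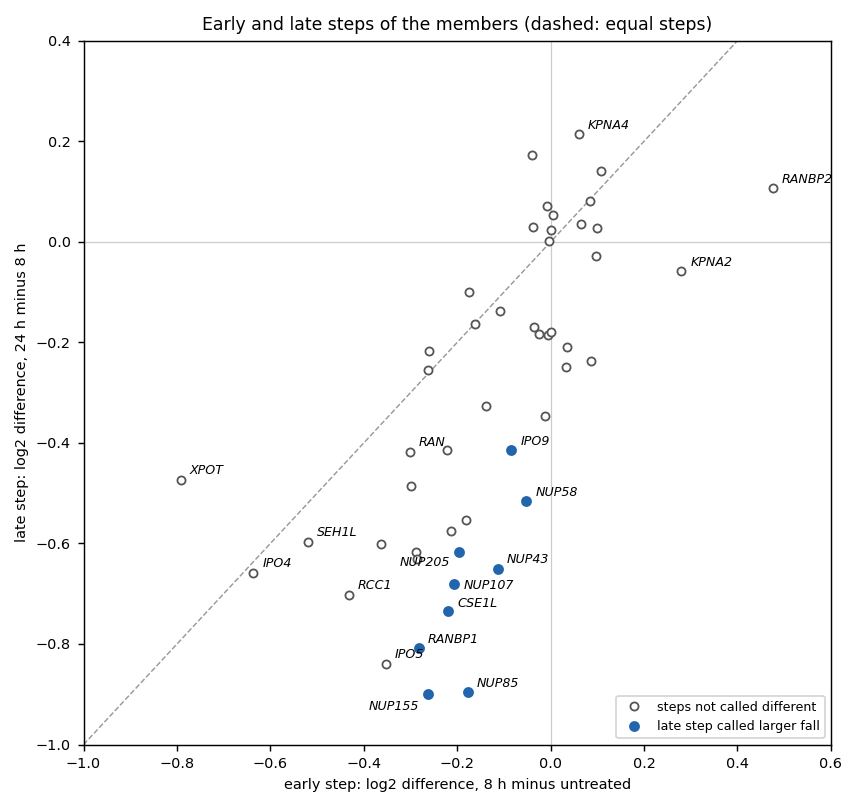
Log2 difference of each of the 50 members from untreated to 8 h (x axis) and from 8 h to 24 h (y axis), with the dashed line where both steps are equal. Filled points are the 9 members whose late step was called the larger fall. XPOT lies left of the line, IPO4 near it, and NUP85 and NUP155 far below it.

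The median of the members was below 0 in each run at 24 h but not at 8 h. The median difference of the members at 24 h was -0.33, -0.30, -0.36 and -0.49 in runs 1 to 4. At 8 h it was 0.00 in run 1, where 25 of 50 members were below 0, and -0.10, -0.13 and -0.17 in runs 2 to 4. In untreated cells the SD of a member over the 4 arrays had a median of 0.12 and reached 0.40 for SEH1L and 0.37 for KPNA2. The median SD was 0.10 at 8 h and 0.08 at 24 h. When each of the 14 arrays was left out in turn, 31 of the 33 lower calls at 24 h held each time, the exceptions being KPNA3 and NUP98. At 8 h, 8 of 15 held each time: IPO4, IPO7, KPNB1, NUP153, NUP62, RAN, RCC1 and XPOT. Without untreated run 4 the count at 8 h was 9.

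The calls at 8 h differed between the days. Within day 1, which holds 2 arrays of each group, 8 of the 15 lower calls at 8 h were lost, and with calls gained there the count was 10. Besides RAN, RANBP1 and NUP62, the members lost were CSE1L (-0.13), KPNB1 (-0.21), NUP153 (-0.21), NUP155 (-0.22) and NUP160 (-0.18). Within days 2 to 4 the count was 19, with NUP205 and NUP210 lost. IPO4 and XPOT were called lower at 8 h in both, IPO4 by -0.59 and -0.70 and XPOT by -1.04 and -0.58. At 24 h the counts were 30 within day 1 and 34 within days 2 to 4, and KPNA3, NUP42, NUP50 and XPO1 were the lower calls lost within day 1. Shares of all genes called within these subsets of days were not set beside the counts. Whether the days differed in these effects was not tested.

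At the level of single probe sets, 63 of the 113 were called lower and 6 higher at 24 h, against 18.6% and 18.5% of all 19070 probe sets with 1 gene. At 8 h 23 were lower and 3 higher, against 9.13% and 7.75%. No gene had probe sets called in opposite directions at any time. Of the members with several probe sets, 13 had all of them called lower at 24 h, and 9 had some called and some not.

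Other genes of the pore and of transport, which the choice by name leaves out, were counted in the same way, and the counts are to be read against 11.0% of all genes called lower and 8.69% higher at 8 h, and 20.9% and 19.5% at 24 h. Of 8 further pore components, 1 was called lower at 8 h, a share near that of all genes, and 4 at 24 h, with none higher. NDC1, a membrane protein that anchors the pore, differed by -0.45 at 8 h and by -1.29 at 24 h (adjusted p = 2.30e-08). AAAS fell by 0.40, RAE1 by 0.24 and SEC13, a subunit of both the Y complex and the COPII coat, by 0.20 at 24 h. AHCTF1, which also belongs to the Y complex, differed by -0.19 at 24 h and was not called (adjusted p = 0.186). POM121, another membrane nucleoporin, differed by -0.01 and was not called.

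Of 13 measured genes of messenger RNA and ribosome export, 7 were called lower at 8 h, against 11.0% of all genes, and 9 at 24 h, against 20.9%. None was called higher. NXT1, the cofactor of the messenger RNA exporter NXF1, differed by -0.90 at 8 h (adjusted p = 2.19e-05) and by -1.66 at 24 h (adjusted p = 4.39e-09). At 24 h, THOC6 and THOC1 of the THO complex fell by 0.91 and 0.64. NMD3, the adaptor by which XPO1 exports the large ribosomal subunit, fell by 0.42 at 8 h and stood at -0.44 at 24 h.

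Among 8 further genes of RAN and carriers, 4 were called lower at 24 h and 1 higher, against 20.9% and 19.5% of all genes. RANBP6, a relative of IPO5, was higher by 0.30 at both times, and NEMP1, an inner nuclear membrane protein that binds RAN, differed by -1.30 at 24 h (adjusted p = 5.10e-09). Of 17 genes of the lamina and envelope, 6 were called lower and 3 higher at 24 h, against the same shares of all genes, so that the number of rises was near the background. LMNB1 fell by 0.94 and VRK1, the kinase that releases BANF1 from chromatin, by 0.96, while SUN2 rose by 0.69 and SYNE1, its partner in linking the envelope to the cytoskeleton, by 0.39.

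Transcripts of DNA replication, measured beside the members as a sign of fewer cycling cells or of less such RNA per cell, which bulk arrays cannot tell apart, were lower by more. All 28 genes of that list were called lower at 24 h, with a median of -2.18, and at 8 h 20 were lower and 1 higher, with a median of -0.47. Of all genes, 20.9% were called lower at 24 h, and 11.0% lower and 8.69% higher at 8 h. Whether the falls of the pore and transport genes moved with this was not tested.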

How the data were processed

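RS4;11 cells were measured on 14 arrays, with groups, runs and days taken from the sample labels. The authors processed the arrays by RMA in the affy package, which covers background, normalization and summary per probe set (versions not given in the sources used here). They dropped 1 untreated array after quality control, and the deposited table holds log2 values of 22277 probe sets. The methods name Agilent arrays, whereas the labels and probe set names are those of Affymetrix. Their variance filter and mean per gene came after this step. No counts stand behind the values, so the number of arrays sets the precision.

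Probe sets with exactly 1 annotated gene were kept (19070), while 1043 with several genes and 2164 not listed in the annotation were left out. Probe sets were averaged per gene without a variance filter, because that filter uses differences between arrays and removed 10 members. limma 3.58.1 in R 4.3.3 (lmFit and eBayes, all 14 arrays, no block) gave the comparisons, with Benjamini-Hochberg adjustment over 11963 genes. The calculation was tested on simulated data without run or day effects, which that test therefore does not cover. The members, lists and tests were chosen with earlier results of these data known, and the difference between the late and the early step was added after seeing the data.

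Named in each comparison were the 10 members called that rose most and the 10 that fell most, and RAN, RCC1, RANGAP1, RANBP1, KPNA2, KPNB1, CSE1L, XPO1 and TPR whatever their values. Further names were up to 4 genes of each other list with the smallest adjusted p. Other members were named after their values were seen, so that each role is described.

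Runs come from the labels. Across genes, deviations from the group means had r of 0.299 to 0.537 in the 13 pairs of arrays that share a run, against -0.469 to 0.473 with a median of -0.264 in 52 other pairs, so that the ranges overlap. The labels name the runs and every pair that shares one was above 0.1, and runs were taken to pair the samples. The main fit did not use this pairing, and the fit with the run as a block is given beside it as an alternative. Alternatives were the variance filter, a filter on dim probe sets, the brightest probe set per gene, no probe sets of the _x_at kind, cyclic loess, a shift to 1 median, blocks by run, title number or day, array weights, eBayes with trend and robust settings, fits of the compared groups alone, subsets of days, omission of run 5, a threshold of 0.01, and each array left out in turn. Promoter letters were searched in the 250 bases before the first listed start site of each gene in the RefSeq table.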

Additional observations from a re-analysis of the deposited data

Results flagged for a closer look

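In 3 of 72 groups, 1 array stood far from the rest of its group relative to the range of the group, where chance gives about 1 in 20. The groups were those of the 24 members named by rule at each time. CSE1L stood at 9.72 on untreated replicate 4 of run 4, while the other untreated arrays lay between 9.50 and 9.53. XPO1 stood at 12.14 on 24 h replicate 2 of run 2, while the other 24 h arrays lay between 12.26 and 12.29. XPOT stood at 11.08 on 8 h replicate 4 of run 5, while the other 8 h arrays lay between 10.69 and 10.79.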

How the results depend on the processing

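With the run as a replicate block, 19 members were lower and 1 higher at 8 h, 34 and 3 at 24 h, 33 and 3 from 8 h to 24 h, and 16 had a larger late fall. The same block raised lower calls among all genes from 1312 to 1815 at 8 h and from 2505 to 2871 at 24 h. From 8 h to 24 h it raised them from 1644 to 2082. Higher calls among all genes went from 1039 to 1428, 2336 to 2654 and 1743 to 2277 in the same order. Title number or day as a block gave 3 higher from 8 h to 24 h, and 14 and 17 larger late falls. The higher count at 8 h, main value 1, was 2 with the variance filter or the brightest probe set (NUP214 added) or array weights, 3 within day 1, and 0 without run 5 or at a threshold of 0.01. That threshold left 8 lower at 8 h and 5 larger late falls. Within day 1, 5 members were higher at 24 h, 14 had a larger late fall and 1 a smaller one. From 8 h to 24 h, 2 members were higher with the variance filter or the brightest probe set. The members' median moved with the variance filter to -0.19 at 8 h, -0.61 at 24 h and -0.43 between them, with the brightest probe set to -0.51 at 24 h, and between 8 h and 24 h to -0.33 with the dim filter or without _x_at probe sets. The filters leave fewer members, and the cause of the other shifts was not tested. For settings other than the run block, shares of all genes were not set beside these counts.

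With each array left out in turn, the lower count at 8 h ranged from 9 to 15 and the higher count from 0 to 2. At 24 h they ranged from 31 to 34 and 3 to 5, and from 8 h to 24 h the lower count ranged from 28 to 31. The median from 8 h to 24 h ranged from -0.29 to -0.23, larger late falls from 6 to 10, and smaller ones from 0 to 1, the 1 without 8 h replicate 4.

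Of 2154 values of named members under 30 alternatives, 2049 kept direction and side of the threshold, 61 lost a call, 40 gained one and 4 reversed, none of them called. These were KPNA2 within days 2 to 4 (-0.0133 at 8 h, -0.0548 at 24 h), RANGAP1 within day 1 (0.15 at 8 h) and TPR with its brightest probe set (-0.0042 at 8 h).

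Of the 15 lower calls at 8 h, 7 were lost in at least 1 omission. The deposited values hold no background calls, and NUP62CL and KPNA5 are the members below the dim filter at log2 5.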
